A study of Mus musculus with 15 samples.

Results

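RNA recovered with an Arid5a antibody from IL-17-treated cells was compared with RNA recovered by the same antibody from cells left in medium. The comparison takes 8 of the 15 libraries of the series, the 4 Arid5a precipitates after IL-17 and the 4 Arid5a precipitates in medium, chosen by antibody and treatment alone. All libraries come from ST2, an established mouse bone marrow stromal line without a stated genetic change. IL-17 was given at 200 ng/mL, and treated and control dishes were kept for 3 h. Every dish was trypsinised and fixed with 1% formaldehyde before RNA immunoprecipitation (RIP), in which an antibody is used to pull down a protein together with RNA attached to it. The other 7 libraries are precipitates with mouse IgG2b, an antibody without a target in these cells, from medium (4) and from IL-17-treated cells (3), and they serve here as the background measured in the same way. No library of unprecipitated RNA was used, so a transcript that was bound more often and a transcript that was more abundant cannot be told apart within the Arid5a RIP.

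IL-17 is a cytokine that signals in stromal cells through the receptor chains Il17ra and Il17rc and the adaptor Act1 (gene Traf3ip2), which switch on the transcription factors NF-kB and C/EBP. It is also known for prolonging the life of short-lived inflammatory mRNAs. Arid5a is an RNA-binding protein known to stabilise such mRNAs, Il6 among them, and to act against Regnase-1 (gene Zc3h12a), a nuclease that degrades them. The comparison asks which transcripts in the Arid5a precipitate rise or fall when IL-17 is present.

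The 4 medium libraries held 2128688 to 3636336 counts and the 4 IL-17 libraries 3411753 to 5713913. Within the medium group log2 CPM (counts scaled to a common library total) of any 2 libraries correlated across genes with a Pearson r of 0.925 to 0.951, and within the IL-17 group with 0.926 to 0.968. No 2 libraries of a group agreed within sampling noise, with a chi-square per degree of freedom of 3.66 at least. Replicate 4 of the IL-17 group stood apart, as the 3 pairs that held it gave 9.07 to 11.8 against 4.35 to 5.08 for the other 3 IL-17 pairs. Stromal genes were present in every Arid5a library, among them Col1a1 (5495 to 8486 CPM), Vim (6078 to 8464 CPM) and the chemokine gene Cxcl12 (1352 to 2417 CPM), while Thy1 (0.210 to 6.23 CPM) and Alpl (0.977 to 5.18 CPM) were low. The labels do not say whether libraries of a group came from separate cultures, so the p-values below measure the spread between these libraries, which may be technical.

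Of 17835 transcripts tested with edgeR, 863 were higher after IL-17 (4.84% of those tested) and 145 were lower (0.813%) at an adjusted p below 0.05, and such transcripts are said to be called. An unadjusted p below 0.05 was found for 3972. The IL-17 libraries lay wholly above the medium libraries for 1914 transcripts (10.7%) and wholly below for 1650 (9.25%). The balance of these calls depended on how the libraries were scaled. With the default TMM factors, 85.6% of the calls were higher. The share was 62.9% with upper-quartile factors, 51.8% with library totals and 35.8% with factors taken from well-expressed genes (115 higher, 0.645%, and 206 lower, 1.16%). It was 58.9% with DESeq2, which is counted among the scalings here although its model and test differ as well. Well-expressed genes are here the 5390 whose log2 CPM averaged 5 or more, and 833 of them (15.5%) were called higher and 31 (0.575%) lower with TMM factors. Their median log2 fold was 0.30 with TMM factors and -0.01 with factors taken from them, while the median of all tested transcripts was -0.12 and -0.41. A log2 fold from the TMM fit thus carries a shift of 0.30 that most well-expressed genes share, and the shares of 4.84% and 15.5% are the background for the counts of listed genes called higher below.

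The calls that did not depend on scaling or on a single library were 115 transcripts higher (0.645% of those tested) and 7 lower (0.0392%). They were called in the same direction under all 5 scalings and with each of the 8 Arid5a libraries left out in turn, and are named stable below. The 115 are also the transcripts called higher with well-expressed factors, so a transcript described below as called higher and not stable lost its call with those factors. Without a library the number called higher ranged from 296 (without IL-17 replicate 2) to 1498 (without IL-17 replicate 4), and the number called lower from 12 to 759 for the same libraries. By log2 fold the largest stable rises were those of the chemokine genes Cxcl5, Cxcl1 and Ccl2, the death receptor gene Fas and the chemokine gene Ccl7, followed by the nuclease gene Zc3h12a. The stable transcripts also held regulators of NF-kB, matrix genes, nuclear noncoding RNAs, and mRNAs of ribosomal proteins and mitochondrial enzymes.

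**Figure D1:**
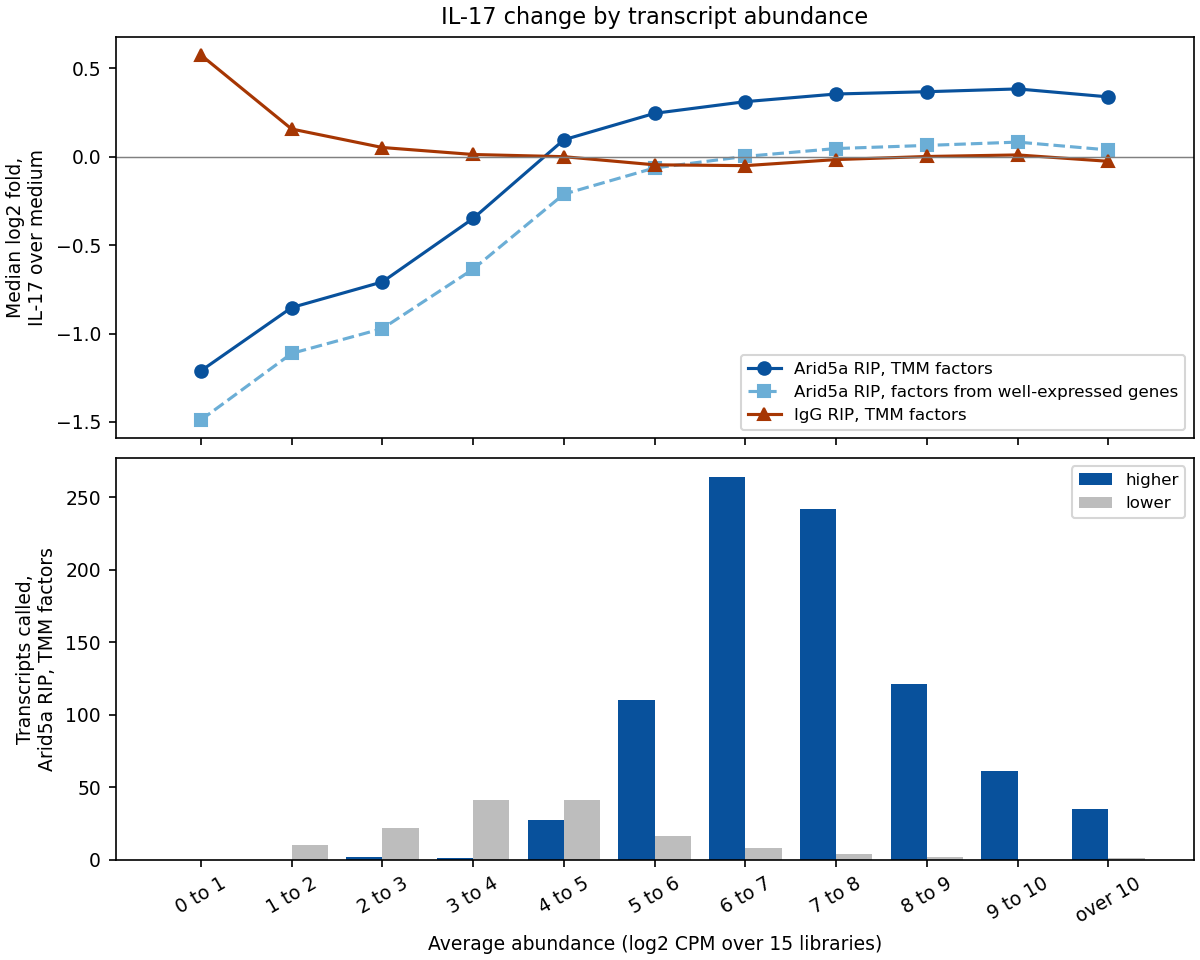
The upper panel plots the median log2 fold of IL-17 over medium for transcripts grouped by average abundance (log2 CPM over 15 libraries), for the Arid5a RIP with TMM factors (circles), with factors from well-expressed genes (squares) and for the IgG RIP (triangles). The lower panel shows how many transcripts of each abundance group were called higher (blue) or lower (grey) in the Arid5a RIP. In the Arid5a RIP the median runs from -1.21 in the lowest group to 0.38 between 9 and 10, and the IgG RIP shows the opposite slope at low abundance.

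The change with IL-17 in the Arid5a RIP followed abundance, as the plot of medians by abundance shows. The median log2 fold was -0.85 for the 3142 transcripts with a log2 CPM between 1 and 2, 0.10 for the 2629 between 4 and 5, and 0.38 for the 140 between 9 and 10. Transcripts called higher had a median log2 CPM of 7.14, and those called lower 3.99. In the IgG RIP the median was 0.16 between 1 and 2 and 0.01 between 9 and 10. The count filter can be passed through the libraries of a single group, so a low transcript may be among those tested because it was high in that group. How far this shaped the medians at low abundance was not tested. The 1485 genes of odorant and vomeronasal receptors, which serve sensory neurons, differed in their summed counts too. They made up 3352, 4640, 5423 and 3490 CPM in the medium libraries and 1470, 1596, 1284 and 4191 CPM in the IL-17 libraries. IL-17 replicate 4 lay within the medium range and the other 3 lay below it, and the difference of means of -2091 CPM had a two-sided exact permutation p of 0.0857 (0.12 adjusted over 7 library measures, where 0.0286 is the smallest p that 4 against 4 allows). Their part in the calls was examined by using this CPM as a covariate, with which 25 transcripts were called higher and 2 lower. The 25 all belong to the 115 stable higher transcripts, and none of the 7 stable lower ones was called. Over the 115 the median log2 fold went from 0.96 to 0.73 with the covariate and the median SE from 0.16 to 0.20. Some folds were nearly the same while the call was lost, as for Ptgs2 (1.94 ± 0.45 with the covariate against 1.98 ± 0.30, adjusted p = 0.148) and Uqcrb (1.11 ± 0.26 against 1.15 ± 0.19, adjusted p = 0.122). Others fell, as for Fgfr1 (0.62 ± 0.25 against 1.08 ± 0.20) and Txn1 (0.41 ± 0.18 against 0.82 ± 0.16). The covariate differed between most libraries of the 2 groups, so its part and that of IL-17 cannot be fully told apart.

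Of 14 tested IL-17-inducible genes 11 were called higher by edgeR, beside 4.84% of all transcripts tested, and 0 lower. Like all lists here, this one was chosen with earlier results of these data known, so the count is not an independent test. Of the 11, 9 are stable. The median log2 fold of the 14 tested was 1.97 with TMM factors and 1.67 with well-expressed factors, against -0.12 and -0.41 over all tested transcripts. The other 12 of the 26 listed genes had too few counts to be tested, Il6 (2 to 8 counts a library) and the lipocalin gene Lcn2 (0 to 7 counts) among them. The 3 tested and not called were the collagenase gene Mmp13 (log2 fold 2.11 ± 0.72 SE, adjusted p = 0.0751), Steap4 (-1.17 ± 0.51, adjusted p = 0.169) and the osteoclast factor gene Tnfsf11 (-0.81 ± 0.81, adjusted p = 0.563). The promoters of 3 called members of this list are printed. NF-kB is known to bind sites that start with a run of G and end with a run of C. The genes printed are the called members with the largest rises whose promoter held the motif given below, its stricter form taken first and then its looser form. The presence of a match in all 3 was thus fixed by the choice. RefSeq sequences (GRCm38.p6) of the 250 bases before the transcription start are given on the gene's strand, with matches on either strand in capitals. The motif is GGGA, any 2 bases, then TTCC for Cxcl1 and Nfkbia, and for Zc3h12a only the looser GGG, any 5 bases, then CC, with 3 matches.
Cxcl1, chr5:90890995-90891244, plus strand: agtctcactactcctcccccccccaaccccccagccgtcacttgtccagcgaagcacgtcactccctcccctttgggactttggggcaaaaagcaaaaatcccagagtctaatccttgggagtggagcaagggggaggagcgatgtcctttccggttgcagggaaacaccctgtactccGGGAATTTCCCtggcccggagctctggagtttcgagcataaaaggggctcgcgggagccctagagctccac
Nfkbia, chr12:55492648-55492897, minus strand: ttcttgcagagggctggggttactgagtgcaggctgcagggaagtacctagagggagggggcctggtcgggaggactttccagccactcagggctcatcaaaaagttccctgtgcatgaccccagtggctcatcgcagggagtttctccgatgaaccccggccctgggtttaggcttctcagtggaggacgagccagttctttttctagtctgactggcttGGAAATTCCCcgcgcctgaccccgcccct
Zc3h12a, chr4:125127882-125128131, minus strand: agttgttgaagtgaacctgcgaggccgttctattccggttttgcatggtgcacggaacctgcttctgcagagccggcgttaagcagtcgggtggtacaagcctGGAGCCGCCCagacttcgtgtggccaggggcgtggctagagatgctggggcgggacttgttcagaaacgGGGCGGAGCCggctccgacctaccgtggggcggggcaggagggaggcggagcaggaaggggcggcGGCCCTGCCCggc

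In Cxcl1 the matches on the 2 strands overlap and together cover bases 71 to 61 before the start, and in Nfkbia the match lies 29 to 20 bases before it. The stricter motif was present in 1.208% of the 32851 promoters in the RefSeq table, and the looser motif, which contains it, in 45.801%. Of the promoters of transcripts called higher, 18 of 849 (2.12%) held the stricter motif, and of those called lower 0 of 137. Among the stable higher transcripts it was found in 5 of 101 promoters, which belong to Cxcl1, Nfkbia, the NF-kB subunit gene Nfkb2 and Nab1, a corepressor of Egr factors. Of the 11 called IL-17-inducible genes 6 were matched to a promoter, and Cxcl5, Ccl2, Ccl7, Nfkbiz and Cebpd were not matched. These matches describe letters in these windows and were not tied to any binding.

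The neutrophil chemokine genes showed the largest rises among stable transcripts. Cxcl5, which encodes a ligand of the neutrophil receptor Cxcr2 (chromosome 5, 90759298 to 90761625, mm10), stood at 0.977, 1.24, 1.20 and 1.04 TMM-scaled CPM in the medium libraries and at 81.1, 89.1, 76.6 and 55.5 in the IL-17 libraries. The groups lay far apart, and the medium values rest on 3 or 4 counts a library against 196 to 400 with IL-17. The fold was 66.2 (log2 fold 6.05 ± 0.39 SE, edgeR adjusted p = 7.99e-14). Cxcl1, another Cxcr2 ligand on the same chromosome (90891245 to 90893121), stood at 2.61, 6.20, 8.73 and 8.03 CPM in medium against 139, 150, 131 and 114 CPM with IL-17, with no overlap. Its log2 fold was 4.36 ± 0.28 (adjusted p = 8.42e-14).

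The monocyte chemokine genes Ccl2 and Ccl7, neighbours on chromosome 11, rose as well. Ccl2 (82035577 to 82037452) stood at 41.7, 31.0, 41.0 and 41.4 CPM in medium against 409, 337, 317 and 341 CPM with IL-17. Ccl7 (82045712 to 82047525) stood at 35.2, 31.8, 34.9 and 31.1 CPM in medium against 262, 272, 225 and 200 CPM with IL-17. Both rose in every IL-17 library beyond every medium library, Ccl2 by 3.17 ± 0.18 (adjusted p = 5.37e-15) and Ccl7 by 2.85 ± 0.18 (adjusted p = 7.99e-14). Ccl9, another CC chemokine gene, rose less, from 99.9 to 185 CPM on average (0.89 ± 0.17, adjusted p = 0.000917), and is stable too. Per length of transcript, the level after IL-17 was 612 ± 66.2 FPKM (fragments scaled to transcript length and library total, SD, n = 4) for Ccl2, 423 ± 58.8 for Ccl7, 183 ± 18.5 for Cxcl1 and 50.3 ± 7.55 for Cxcl5. The order of these levels was not that of the folds, and neighbours in it differed by more than their SDs. Of 25 chemokine and cytokine genes tested, 7 were called higher (5 of them stable) and 0 lower, with Cx3cl1 and Csf1 as the others, and the median log2 fold of the list was -0.22 (-0.53 with well-expressed factors).

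**Figure D2:**
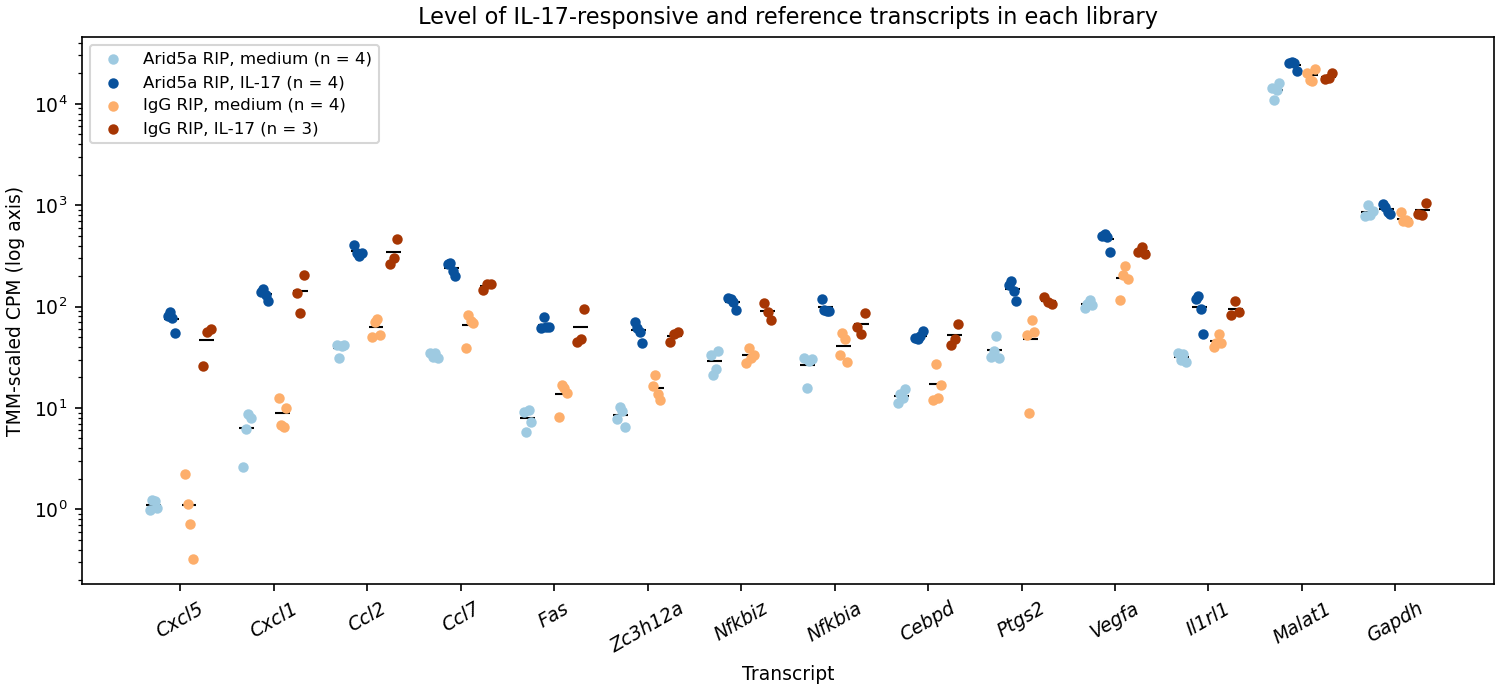
Points show the TMM-scaled CPM (log axis) of 14 transcripts in each library, for the Arid5a RIP in medium (light blue, 4 libraries) and after IL-17 (dark blue, 4) and for the IgG RIP in medium (orange, 4) and after IL-17 (brown, 3), with a short line at each group's mean. From Cxcl5 to Il1rl1 every dark blue point lies above every light blue point, as it does for the noncoding RNA Malat1, and the groups overlap for Gapdh.

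Regulators of NF-kB were among the stable transcripts too. Nfkbiz, which encodes the IkB-zeta coactivator of IL-17 target genes, stood at 33.2, 21.1, 24.1 and 36.8 CPM in medium against 121, 120, 110 and 93.4 CPM with IL-17. Nfkbia, which encodes the inhibitor IkB-alpha, stood at 31.3, 15.7, 29.2 and 30.6 CPM in medium against 119, 92.7, 90.4 and 91.2 CPM with IL-17. The groups of both genes did not overlap, although medium replicate 2 was low for both. The log2 folds were 1.94 ± 0.20 for Nfkbiz (adjusted p = 1.78e-08) and 1.87 ± 0.22 for Nfkbia (adjusted p = 7.98e-07). Of the subunit genes, Nfkb2 rose by 1.41 ± 0.20 and Nfkb1 by 1.12 ± 0.20, both stable, and Relb by 1.39 ± 0.39 (adjusted p = 0.0284, and 0.136 with well-expressed factors). Tnfaip3, which encodes the deubiquitinase A20, rose by 0.96 ± 0.20 (adjusted p = 0.00356, and 0.0740 with well-expressed factors). In all, 7 of 28 genes of NF-kB subunits, inhibitors and feedback were called higher, with the kinase gene Chuk (not stable) as the other, and 0 lower, beside 4.84% of all transcripts tested and 15.5% of well-expressed genes called higher. The median of the list was 0.47, and 0.18 with well-expressed factors.

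Among C/EBP, AP-1 and immediate early factors, 4 of 39 were called higher (4.84% over all tested, 15.5% over well-expressed genes) and 1 lower, with a list median of 0.10. With well-expressed factors 1 was higher and 3 were lower, and the median was -0.22. Cebpd, a C/EBP gene induced in acute inflammation that overlaps the model of Spidr, stood at 11.1, 13.6, 12.6 and 15.3 CPM in medium against 49.1, 47.6, 51.3 and 58.0 CPM with IL-17. IL-17 replicate 4 was the highest of its group here, and the log2 fold was 1.96 ± 0.26 (adjusted p = 5.18e-06). The related Cebpb rose by 0.82 ± 0.20 (adjusted p = 0.0108), and its adjusted p was 0.124 with well-expressed factors. The AP-1 gene Fos was lower by a log2 fold of -1.40 ± 0.40 (adjusted p = 0.0312), and that call was lost without any of medium replicates 1 to 3 or IL-17 replicates 1 to 3. Fos was called lower in the IgG RIP too (-1.98 ± 0.47, edgeR adjusted p = 0.0387), and the difference between the RIPs was not called (adjusted p = 0.655). Klf6 and Myc were the other genes called higher in this list, and neither is stable.

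Transcripts linked to Arid5a in earlier work overlapped with these groups. Of the 11 listed, 7 were tested and 6 were called higher, namely Cxcl5, Cxcl1, Cebpd, Nfkbiz, Cebpb and Stat3, and the first 4 are stable. The median log2 fold was 1.94, and 1.64 with well-expressed factors. In the IgG RIP the list median was 1.48 and 4 members were called higher, and the edgeR test of the difference between the RIPs called 0. The rise of these transcripts was thus not shown to be particular to the Arid5a antibody. Stat3, a transcription factor of the Il6 pathway, stood at 43.3, 38.8, 43.4 and 49.2 CPM in medium against 78.0, 72.7, 70.5 and 56.1 CPM with IL-17. Its groups did not overlap, and its log2 fold of 0.66 ± 0.19 (adjusted p = 0.0314) became 0.35 with well-expressed factors (adjusted p = 0.227). Tbx21, a T cell transcription factor gene with 7 to 32 counts a library, was not called (-1.72 ± 0.58, adjusted p = 0.0698). Arid5a itself stood at 12.38, 21.48, 13.85 and 13.98 CPM in medium against 19.1, 10.3, 12.6 and 37.1 CPM with IL-17. The groups overlapped, with IL-17 replicate 4 the highest of all 8, and no change was called (0.35 ± 0.36, adjusted p = 0.568).

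Of 23 factors that bind AU-rich elements or act in stem-loop decay of inflammatory mRNAs, 5 were called higher (15.5% over well-expressed genes) and 0 lower. The list median of 0.35 was close to the 0.30 of well-expressed genes and was 0.08 with well-expressed factors. Zc3h12a, the gene of the nuclease Regnase-1 (chromosome 4, 125118414 to 125127881), stood at 7.82, 10.3, 9.33 and 6.47 CPM in medium against 70.9, 61.8, 56.1 and 43.9 CPM with IL-17. Every IL-17 library lay above every medium library, and the log2 fold was 2.79 ± 0.26 (adjusted p = 2.34e-09). Rc3h1, the gene of Roquin-1, which recognises stem-loops in the same class of mRNAs, rose from 78.9 ± 5.24 to 146 ± 7.99 CPM (0.89 ± 0.15, adjusted p = 0.000307), and both are stable. Elavl1 (HuR, which protects AU-rich mRNAs), Rc3h2 and Pum2 rose by 0.71, 0.65 and 0.48. With well-expressed factors their folds were 0.39, 0.33 and 0.17, and none of the 3 is stable. Zfp36, whose product tristetraprolin removes AU-rich mRNAs, was not called (-0.32 ± 0.38, adjusted p = 0.629). Of 38 genes of the general decay machinery 6 were called higher, among them Dis3 (0.61), Pabpc1 (0.56) and Cnot1 (0.46), none of them stable. That count is near the 15.5% of well-expressed genes, and the list median of 0.31 was -0.01 with well-expressed factors.

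The list of the IL-17 receptor and its proximal signalling genes had a median of 0.26, and -0.05 with well-expressed factors. Of 24 tested, Srsf1 (0.64 ± 0.14) and Ddx3x (0.55 ± 0.13) were called higher, and neither is stable. The receptor chain gene Il17ra stood at 38.7 ± 7.17 CPM in medium and 41.6 ± 8.72 with IL-17 (0.11 ± 0.22), Il17rc at 16.3 ± 3.56 and 16.9 ± 8.42 (0.06 ± 0.47), and the adaptor gene Traf3ip2 at 19.4 ± 4.32 and 26.2 ± 3.11 (0.43 ± 0.32). None of the 3 was called, and the folds of Il17ra and Il17rc were below 0 with well-expressed factors. No gene was called by edgeR among 21 phosphatase and cytokine feedback genes (median 0.05), 31 interferon response genes (median -0.08) and 37 cell cycle genes (median 0.23). At an unadjusted p under 0.05, edgeR placed 2, 0 and 9 of their members higher and none lower, and DESeq2 called 0, 0 and 1 after adjustment. The median of each of these lists fell below the 0.30 shared by well-expressed genes.

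Further large stable rises were those of Fas, Il1rl1, Ptgs2 and Vegfa. Fas, the death receptor gene, stood at 9.12, 5.78, 9.64 and 7.25 CPM in medium against 61.4, 78.8, 62.8 and 63.1 CPM with IL-17, a log2 fold of 3.05 ± 0.28 (adjusted p = 1.71e-09). Il1rl1, which encodes the IL-33 receptor ST2, stood at 34.9, 29.7, 34.0 and 28.2 CPM in medium against 118, 128, 95.7 and 53.5 CPM with IL-17. Here IL-17 replicate 4 was far below the other 3 of its group but above every medium library, and the log2 fold was 1.64 ± 0.21 (adjusted p = 3.86e-06). Ptgs2, the gene of the prostaglandin synthase Cox-2, stood at 31.6, 36.3, 51.5 and 31.3 CPM in medium against 162, 178, 142 and 113 CPM with IL-17 (1.98 ± 0.30, adjusted p = 0.000512). Vegfa, the gene of the angiogenic growth factor, stood at 95.8, 107, 117 and 103 CPM in medium against 500, 525, 487 and 346 CPM with IL-17. No library of the medium group reached an IL-17 library in either gene, and the log2 fold of Vegfa was 2.14 ± 0.17 (adjusted p = 4.10e-11).

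In the list of TNF receptor family, adhesion and prostaglandin genes 8 of 22 were called higher (15.5% over well-expressed genes) and 0 lower, with a median of 0.14 that was -0.16 with well-expressed factors. Besides Fas and Ptgs2 these were Vcam1 (1.03), Tnfrsf12a (0.82), the osteoprotegerin gene Tnfrsf11b (0.74), Pla2g4a (0.67), Cd44 (0.64) and Ptges3 (0.50), and only Fas and Ptgs2 are stable. Of 19 acute-phase, complement and metal-binding genes 3 were called higher, and the list median of 0.41 was 0.09 with well-expressed factors. The complement gene C3 stood at 1.95, 2.89, 0.602 and 2.85 CPM in medium against 14.3, 8.43, 12.1 and 15.3 CPM with IL-17 (2.58 ± 0.58, adjusted p = 0.00571). The metallothionein gene Mt2 rose by 1.62 ± 0.40 (adjusted p = 0.0137, and 0.0935 with well-expressed factors). Serpina3h, which RefSeq annotates as a transcribed pseudogene and which is outside the lists, rose by 2.08 ± 0.35 (adjusted p = 0.000243). The antiprotease gene Slpi rose by 1.97 ± 0.58 (adjusted p = 0.0351) and is not stable, with an adjusted p of 0.127 with well-expressed factors. Among stable transcripts outside the lists were also Fgf7, a stromal growth factor gene (355 to 779 CPM, 1.14 ± 0.13), Plk2, a kinase gene (57.9 to 161 CPM, 1.47 ± 0.19), Osmr, a receptor subunit of the Il6 family (35.8 to 79.7 CPM, 1.15 ± 0.23), and Ripk2, a kinase gene of innate immune signalling (45.0 to 109 CPM, 1.27 ± 0.20).

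**Figure D3:**
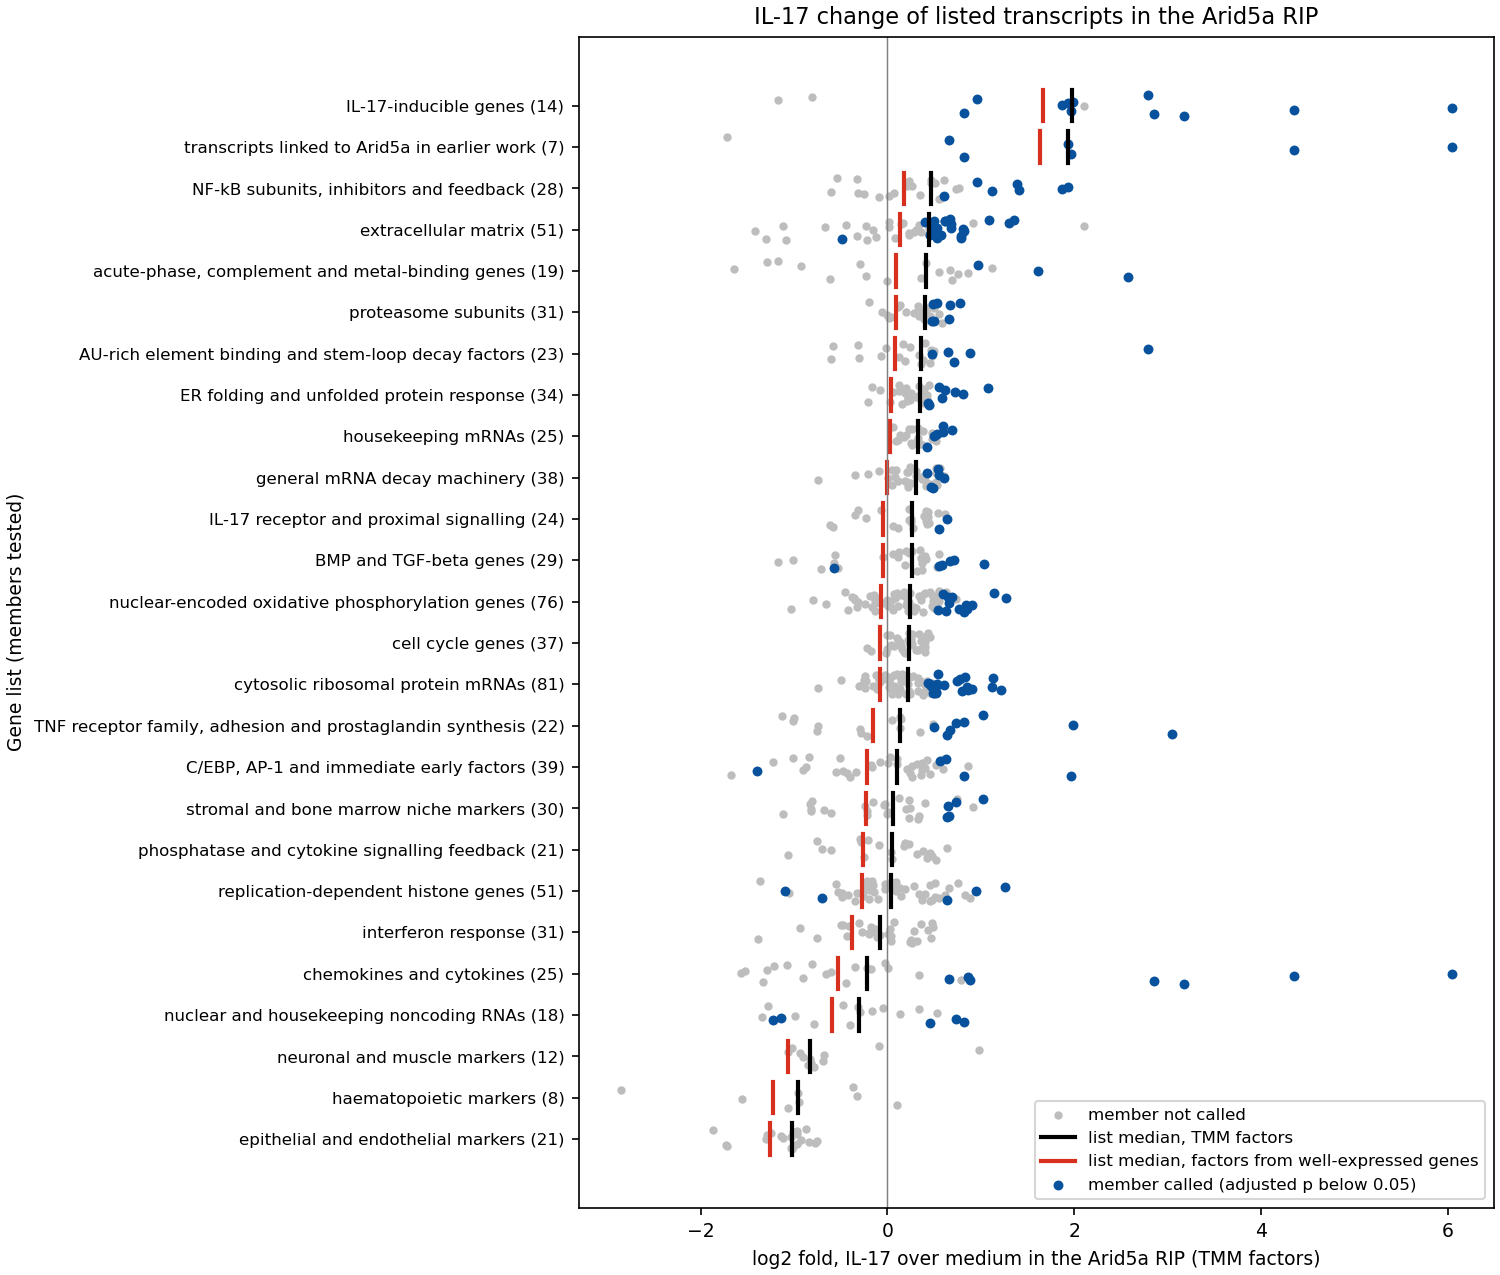
Each point is a listed transcript placed by its log2 fold of IL-17 over medium in the Arid5a RIP with TMM factors, blue where called and grey where not, with the list's median under TMM factors (black) and under factors from well-expressed genes (red). The list of IL-17-inducible genes has the highest median (1.97) and the epithelial and endothelial markers the lowest (-1.02), and most other medians lie within 0.5 of 0.

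Extracellular matrix genes gave the largest count of any list, with 24 of 51 called higher and 1, the aggrecanase gene Adamts5 (-0.49 ± 0.15, adjusted p = 0.0456), called lower. The share called higher is 4.84% over all tested and 15.5% over well-expressed genes. With well-expressed factors 7 members were called higher and 3 lower, and the median went from 0.45 to 0.13. The 7 stable members were the metalloproteinase inhibitor gene Timp3, the collagen lysyl hydroxylase gene Plod2, the tenascin gene Tnc, Col8a1, the fibrillin gene Fbn1, Ccn2 (connective tissue growth factor) and the crosslinking enzyme gene Lox. Timp3, whose model overlaps that of Syn3, stood at 194, 245, 251 and 236 CPM in medium against 582, 730, 600 and 466 CPM with IL-17 (1.36 ± 0.16, adjusted p = 5.07e-07). Tnc stood at 98.4, 107, 114 and 123 CPM in medium against 263, 273, 227 and 173 CPM with IL-17 (1.08 ± 0.16, adjusted p = 3.23e-05). The groups of neither gene overlapped, and IL-17 replicate 4 was the lowest of its group in both. The other stable folds ran from 0.68 for Lox to 1.30 for Plod2. Of the fibrillar collagen genes, Col3a1 was called higher by 0.58 and Col1a2 by 0.46, and neither is stable. Col1a1 was not called (0.23 ± 0.12, adjusted p = 0.252) and turned to -0.08 with well-expressed factors. Of 30 stromal and niche markers 5 were called higher, Vcam1, Tnfrsf11b, Csf1, Prrx1 and Cd44, and none is stable. Their list median of 0.06 was -0.23 with well-expressed factors. Of 29 BMP and TGF-beta genes 5 were called higher, with the activin antagonist gene Fstl3 largest (1.03 ± 0.27), and Bmp4 was called lower (-0.57 ± 0.18, adjusted p = 0.0484), all 6 outside the stable set.

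Counts for lists of genes used by every cell stand beside the 15.5% of all well-expressed genes that were called higher. Of 81 cytosolic ribosomal protein mRNAs, 21 were called higher and 0 lower, and 6 of them are stable (Rps26, Rpl34, Rpl26, Rpl35, Rps27a and Rpl21). Rpl26 stood at 770, 651, 705 and 825 CPM in medium against 1444, 1593, 1161 and 1172 CPM with IL-17 (0.86 ± 0.13, adjusted p = 5.89e-05). Ribosomal protein genes have many pseudogene copies, between which reads can be split. The median of the list was 0.22 and turned to -0.08 with well-expressed factors, under which 6 members were called higher and 4 lower. Of 76 nuclear-encoded oxidative phosphorylation genes 13 were called higher, a share near that background, and with well-expressed factors 3 were higher and 3 lower and the median turned from 0.24 to -0.07. Among the 13, the complex III gene Uqcrb (1.15 ± 0.19), the cytochrome oxidase gene Cox7b (0.85 ± 0.14) and the ATP synthase gene Atp5a1 (0.82 ± 0.14) are stable. Uqcrb stood at 145, 83.4, 132 and 166 CPM in medium against 315, 316, 253 and 286 CPM with IL-17. Of 34 genes of endoplasmic reticulum folding 8 were called higher, led by the oligosaccharyltransferase gene Rpn1 (1.08 ± 0.22), and only the chaperone gene Hspa5 is stable (0.81 ± 0.12). Of 31 proteasome subunits 7 and of 25 housekeeping mRNAs 6 were called higher, none of them stable. Their medians of 0.40 and 0.33 were 0.09 and 0.03 with well-expressed factors, and Gapdh, not called, moved from 0.09 to -0.22.

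Nuclear noncoding RNAs moved in both directions. Malat1 (chromosome 19, 5795690 to 5802672), a noncoding RNA of nuclear speckles, stood at 14250, 10877, 13766 and 16145 CPM in medium against 25212, 26093, 25021 and 21163 CPM with IL-17. Neat1 (chromosome 19, 5824708 to 5845480), the scaffold of paraspeckles, stood at 1419, 1361, 1537 and 1312 CPM in medium against 2247, 2775, 2457 and 1902 CPM with IL-17. The groups of both lay apart, with log2 folds of 0.82 ± 0.12 (adjusted p = 2.11e-05) and 0.74 ± 0.12 (adjusted p = 0.000241), and both are stable. Meg3, an imprinted noncoding RNA, was lower, at 43.3, 57.0, 64.1 and 48.9 CPM in medium against 16.6, 15.3, 17.8 and 42.8 CPM with IL-17. IL-17 replicate 4 stood close to the medium libraries, and the call (-1.22 ± 0.28, adjusted p = 0.00632) was lost without IL-17 replicate 1 (adjusted p = 0.0508) or replicate 2 (0.0571). Rmrp, the RNA of RNase MRP, was also called lower (-1.14 ± 0.29, adjusted p = 0.0351) and is not stable, as is the case for Kcnq1ot1, called higher by 0.46 ± 0.13. The list held 18 tested RNAs, and its median was -0.31.

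The 7 transcripts with a stable fall were the translocon-associated protein gene Ssr4, the histone gene H2bc6, Gm10845, the glucuronosyltransferase gene Ugt1a1, the zinc finger gene Zscan18, the U3 small nucleolar RNA gene Rnu3a and the dendrin gene Ddn. Ssr4 stood at 166, 158, 120 and 175 CPM in medium against 84.1, 91.1, 99.0 and 101 CPM with IL-17 (-0.72 ± 0.16, adjusted p = 0.00632). Rnu3a stood at 122, 115, 92.4 and 119 CPM in medium against 17.2, 23.9, 38.9 and 50.1 CPM with IL-17 (-1.79 ± 0.33, adjusted p = 0.00413). In both, every IL-17 library lay below every medium library. H2bc6 stood at 62.6, 59.1, 56.0 and 35.7 CPM in medium against 30.4, 20.1, 20.1 and 28.9 CPM with IL-17 (-1.10 ± 0.24, adjusted p = 0.00415). The model of Ugt1a1 overlaps those of 8 other Ugt1a genes, between which counts may have been split, and H2bc6, Zscan18 and Ddn also overlap other models. Histone genes moved both ways, with H3c15 (1.26), H2bc3 (0.95) and H1f4 (0.64) called higher, none of them stable, and H2ac13 (-0.71) called lower besides H2bc6, and a median of 0.04 over 51 genes (-0.27 with well-expressed factors). The largest falls allowed by the naming rule were those of the odorant receptor gene Olfr117 (-2.89 ± 0.80), Arhgap25, Tcap, Stap2, Prps1l1, Hes2, Myom3 and Fndc5 (-2.29 ± 0.71). Their adjusted p ran from 0.0204 to 0.0481. Their means ran from 5.32 to 9.76 CPM in medium and from 0.846 to 1.64 CPM with IL-17. Each lost its call when some Arid5a library was left out. With 0 to 14 counts in an IL-17 library, they may have passed the count filter only through groups where they were high. How far this shaped their falls was not tested.

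Marker lists of other cell types were examined, since the libraries differed in such genes. The summed CPM of 22 epithelial and endothelial markers was 128 to 161 in the medium libraries, 33.3 to 52.0 in IL-17 replicates 1 to 3 and 105 in replicate 4, against 73.2 to 158 in the IgG libraries. The means of 140 ± 14.1 and 56.7 ± 33.3 (SD, n = 4) differed with an exact permutation p of 0.0286, the smallest possible (0.1 adjusted over the 7 measures). The 17 haematopoietic markers summed to 43.7 to 51.1 CPM in medium and to 20.6 to 28.1 with IL-17 (exact permutation p = 0.0286, adjusted 0.1), where replicate 4 lay with its group. In the IgG RIP they summed to 32.5 to 48.1 CPM in medium and to 23.5 to 26.5 with IL-17, also without overlap. None of the 21 and 8 tested members of these lists was called by edgeR, and their medians were -1.02 and -0.96. At an unadjusted p under 0.05, 5 and 1 of them were lower and none higher, and DESeq2 called 1 lower in each list after adjustment. Defining markers had few counts in every Arid5a library, Epcam 4 to 26, Pecam1 4 to 12 and Ptprc 1 to 12. The summed stromal markers did not separate the groups, at 13242 to 14885 CPM in medium and 12286 to 14313 with IL-17 (exact permutation p = 0.8). The part of these markers and of the receptor genes in the calls for low transcripts was not tested beyond the covariate.

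**Figure D4:**
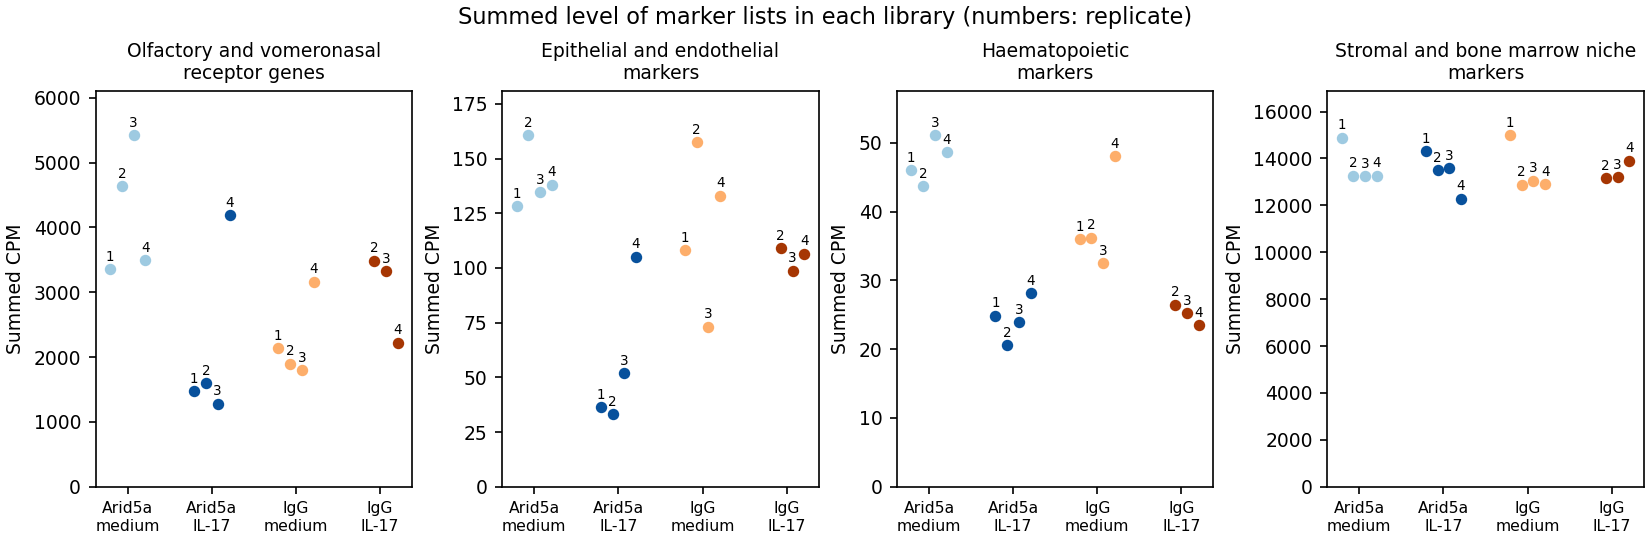
Each point is the summed CPM of a marker list in a library, labelled with its replicate number, for olfactory and vomeronasal receptor genes, epithelial and endothelial markers, haematopoietic markers and stromal markers. IL-17 replicate 4 of the Arid5a RIP lies with the medium libraries for receptor genes (4191 CPM) and nearer to them than replicates 1 to 3 for epithelial and endothelial markers (105 CPM), while stromal markers overlap in all groups.

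The IgG RIP gives the change with IL-17 in RNA recovered without an Arid5a antibody, and most leading transcripts rose there as well. Cxcl5 rose by 5.24 ± 0.41 in the IgG RIP, Cxcl1 by 3.89 ± 0.28, Ccl2 by 2.47 ± 0.19, Fas by 2.23 ± 0.29 and Zc3h12a by 1.75 ± 0.27, each called by edgeR with an adjusted p of 0.000337 or less. The test of the difference between the RIPs called none of the 5 (edgeR adjusted p from 0.148 for Zc3h12a to 0.570 for Cxcl1). The difference in log2 fold was 0.81 ± 0.67 for Cxcl5, 0.47 ± 0.39 for Cxcl1, 0.70 ± 0.25 for Ccl2, 0.82 ± 0.40 for Fas and 1.04 ± 0.37 for Zc3h12a. With well-expressed factors these were 0.48, 0.15, 0.38, 0.51 and 0.69 in the same order. In the IgG RIP 46 transcripts were called higher (0.258%) and 42 lower (0.235%). The IgG libraries held 939139 to 4580018 counts, and 3 of them were from IL-17-treated cells against 4 in the Arid5a RIP. The numbers of calls in the 2 RIPs were therefore not obtained at equal depth or group size, and a transcript not called in the IgG RIP may still have changed there. Of the 863 called higher in the Arid5a RIP, 34 were also higher in the IgG RIP, which is 3.94% of the former and 73.9% of the latter. Of the 115 stable transcripts 26 were called higher in the IgG RIP and 91 had an IgG log2 fold above 0, against 45.0% of all well-expressed genes. Across these 115 genes, which are not independent replicates and were selected on the Arid5a change, the log2 folds of the 2 RIPs had a Pearson r of 0.89, against 0.26 across well-expressed genes and -0.02 across all tested.

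**Figure D5:**
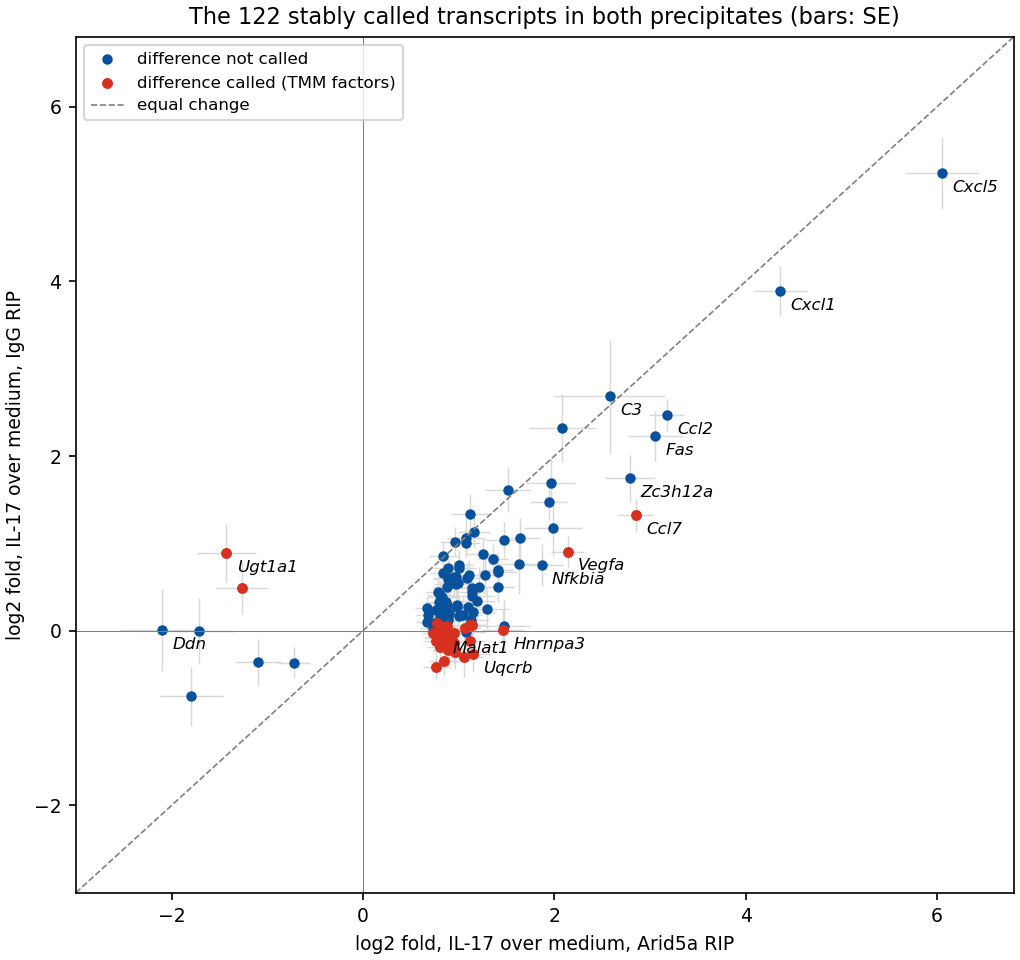
The 122 stable transcripts are placed by their log2 fold of IL-17 over medium in the Arid5a RIP (x axis) and in the IgG RIP (y axis), with bars of 1 SE, in red where the difference between the folds was called with TMM factors. Cxcl5 (6.05 and 5.24) and Cxcl1 (4.36 and 3.89) are high on both axes, while Malat1 (0.82 and -0.04) and Uqcrb (1.15 and -0.27) are near or below 0 in the IgG RIP. The dashed line marks equal change in both.

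By the edgeR test of the difference with TMM factors, 155 transcripts (0.869%) moved further up with IL-17 in the Arid5a RIP and 19 (0.107%) moved further down. Of the 155, 98 were also called higher in the Arid5a RIP. Ccl7 in the IgG RIP went from 65.6 ± 18.8 CPM (n = 4) to 160 ± 13.7 CPM (n = 3), a rise of 1.32 ± 0.19 that was smaller than in the Arid5a RIP by 1.53 ± 0.26 (adjusted p = 0.0148). Vegfa rose by 0.91 ± 0.18 in the IgG RIP, smaller by 1.23 ± 0.25 (adjusted p = 0.0149). Malat1 and Neat1 had log2 folds of -0.04 ± 0.13 and -0.03 ± 0.13 there, and their differences of 0.86 ± 0.17 and 0.77 ± 0.18 were called (adjusted p = 0.0149 and 0.0314). Uqcrb was at 227 ± 48.9 CPM in medium and 189 ± 56.8 with IL-17 in the IgG RIP. Its difference was 1.41 ± 0.28 (adjusted p = 0.0149), and that of Hnrnpa3, an RNA-binding protein gene, 1.46 ± 0.32 (adjusted p = 0.0319). Starting levels differed between the antibodies. Medium means (Arid5a, then IgG) were 33.2 and 65.6 CPM for Ccl7, 106 and 190 for Vegfa, and 132 and 227 for Uqcrb. They were 13759 and 19059 for Malat1, 1407 and 1880 for Neat1, and 434 and 625 for Hnrnpa3. After IL-17 the order was reversed for each, as for Vegfa (465 and 354) and Malat1 (24372 and 18543). Each difference thus combined a lower start and a higher end with Arid5a, and the cause was not tested. Of the 7 stable lower ones 3 had an IgG log2 fold below 0 and none was called lower there, and Ugt1a1 and Gm10845 were called in the difference (-2.31 ± 0.46, adjusted p = 0.0149, and -1.75 ± 0.40, adjusted p = 0.0259).

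These differences rested on the scaling of the libraries. Over well-expressed genes 83.4% rose more in the Arid5a RIP and the median difference was 0.34, which became 0.00 with factors taken from those genes. With these factors edgeR called 0 differences, with 2592 at an unadjusted p below 0.05, and the adjusted p was 0.0779 for Ccl7, 0.139 for Vegfa and 0.141 for Malat1. Their differences then stood at 1.19, 0.87 and 0.54, all in the same direction.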

How the data were processed

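RNA from 8 Arid5a and 7 IgG2b precipitates was sequenced with a stranded kit for small inputs. Per the submitters' processing notes, the mm10 build was used with RSEM 1.3.1, STAR 2.7.9, R 4.3.0 and DESeq2 1.36.0. What each tool did, which annotation was used and how strand was handled is not given in the sources used here. The authors deposited 1 table of expected counts per gene and 1 table of FPKM, with a column per library. Expected counts were rounded to whole numbers, and 17835 of 25239 genes passed edgeR's filter by group (1464 were 0 in all libraries).

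Transcripts were tested with edgeR 4.0.16 quasi-likelihood tests (R 4.3.3) with TMM factors and 4 group means over all 15 libraries, unless an alternative is named. Their p-values were adjusted by Benjamini-Hochberg over all 17835 genes, with calls below 0.05. Library totals and marker sums were compared with an exact permutation test. A ± after a log2 fold is the SE, and after a level the SD. CPM are scaled by TMM factors, except library and marker sums and the stromal check. On simulated data for IL-17 against medium in the Arid5a RIP (17234 genes), 27 of 100 genes changed by 2-fold and 77 of 100 changed by 4-fold were called, and 4 of 17034 unchanged genes. The simulated libraries held no shift with abundance and no library set apart like IL-17 replicate 4. The simulation therefore does not gauge false calls that such features give.

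Alternatives were upper-quartile factors, library totals, TMM factors from well-expressed genes, DESeq2 1.42.0, limma 3.58.1 (voom with quality weights, and log2 of FPKM plus 1 or 0.1), no filter and a stricter filter (10 counts in every library of a group), the 8 libraries alone, a replicate block, the receptor-gene covariate, thinning to 2128689 counts and leaving out each of the 15 libraries. The labels do not say whether replicate numbers pair the libraries. Deviations of same-numbered Arid5a libraries correlated at -0.15 to 0.08 over all tested genes and at -0.012 to 0.195 over well-expressed genes. These low correlations do not settle whether libraries were paired, and the main fit used no pairing.

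Members and gene lists were chosen with earlier results of these data known. The genes named are the 15 largest higher and 8 largest lower called genes with non-overlapping groups and an average log2 CPM of at least 2, up to 4 called genes of each list and a fixed set of IL-17, Arid5a and reference genes. Others, among them Ccl9, Tnfaip3, Relb, Tbx21, Mmp13, Steap4, Tnfsf11, Fgf7, Osmr, Ripk2, Adamts5, Bmp4 and the further stable genes, markers and list members, were chosen after their values were seen. Of the symbols 25037 (99.2%) matched RefSeq GRCm38.p6, and 48 of the 122 stable genes overlap another gene model. Called genes beyond those named enter the counts only, and 1 gene that the rule names is not reported here.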

Additional observations from a re-analysis of the deposited data

Results flagged for a closer look

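In 196 groups of 4 libraries, a library was set apart where its gap to the nearest other exceeded Dixon's 95% limit as a share of the group's range, which chance gives in about 1 group in 20. Medium replicate 2 was low for Ccl2 (31.0 CPM against 41.0 to 41.7 in the other 3), Nfkbia (15.7 against 29.2 to 31.3), the proteasome gene Psmd7 (216 against 308 to 323) and the poly(A)-binding protein gene Pabpc1 (1329 against 1383 to 1391). Medium replicate 4 was low for Il17ra (28.0 against 42.1 to 42.5) and high for Cox7b (220 against 164 to 172) and Lcn2 (1.81 against 0 in the others). Medium replicate 1 was high for the proteasome gene Psma3 (123 against 99.97 to 104) and for the summed stromal markers (14885 against 13242 to 13264). Among IL-17 libraries, replicate 1 was high for Nfkbia (119 against 90.4 to 92.7) and replicate 2 for Fas (78.8 against 61.4 to 63.1). IL-17 replicate 4 was high for Meg3 (42.8 against 15.3 to 17.8) and for the summed receptor genes (4191 against 1284 to 1596), and low for the mesenchymal transcription factor gene Prrx1 (176 against 225 to 232).

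The change with IL-17 differed between the Arid5a and the IgG RIP (log2 difference, edgeR with TMM factors) for 14 of the 89 named transcripts tested. Over all transcripts tested, 0.869% moved further up in the Arid5a RIP and 0.107% further down. Most named transcripts were picked for a call in the Arid5a RIP, so the count of 14 cannot be compared with these shares. The difference was 1.76 for Rpn1, 1.53 for Ccl7, 1.41 for Uqcrb, 1.36 for H2bc3, 1.23 for Vegfa and 1.19 for the proteasome gene Psmd6. It was 1.11 for Ywhaz, 1.06 for Ppia, 0.98 for Cox7b, 0.89 for Atp5a1, 0.86 for Malat1, 0.82 for the chaperone gene Pdia3 and 0.77 for Neat1. Meg3 had a difference of -1.60. With factors taken from well-expressed genes none of these differences passed the threshold. In medium, each transcript listed with a positive difference had a lower mean CPM with Arid5a than with IgG, as for Rpn1 (215 and 495). Meg3 had a higher one (53.4 and 31.8). The cause was not tested.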

How the results depend on the processing

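The numbers of transcripts called depended on scaling and on single libraries. With upper-quartile factors 202 were called higher, with library totals 156, with factors from well-expressed genes 115 and with the receptor-gene covariate 25. Limma on log2(FPKM + 1) called 85 higher and 28 lower, and on log2(FPKM + 0.1) 64 and 11. Voom with quality weights called 3372 higher and 4125 lower, and the 8 Arid5a libraries alone 1928 and 1049. DESeq2 called 555 lower, the replicate block 92 (692 higher) and the covariate 2. Leaving out 1 library gave 296 to 1498 higher and 12 to 759 lower. No pairing by replicate number is stated in the labels, so the replicate block is given here only. Of 174 differences between the Arid5a and IgG RIP edgeR called 0 with upper-quartile factors (2446 at an unadjusted p below 0.05), library totals (2527), well-expressed factors (2592) and the covariate (885). DESeq2 called 394 differences, voom 1758, the replicate block 85 and the FPKM fits 6 (pseudocount 1) and 2 (0.1). Without 1 library the count ran from 0 (without Arid5a IL-17 replicate 1, with 2239 unadjusted) to 715 (without Arid5a IL-17 replicate 4). The difference was not run for the 8 Arid5a libraries alone or for thinned libraries. Other counts of calls stayed within 1.5 times. Unadjusted p below 0.05 was found for 1088 (covariate) to 9187 (voom) transcripts, and for 885 to 5068 in the difference.

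Cxcl5, Cxcl1, Ccl2, Ccl7, Fas, Zc3h12a, Vegfa, Serpina3h, Cebpd, Nfkbiz, Nfkbia, Timp3, Hspa5 and Rpl26 were called higher under all 28 alternatives. Over the other named genes 517 results lost their call under an alternative, and Col1a1 gained it with voom. Signs turned for 5 genes that were not called. The Arid5a log2 fold, IL-17 against medium in the Arid5a RIP, was at -0.043 with voom and -0.000126 with log2(FPKM + 0.1), and without 1 library at -0.14 (without Arid5a IL-17 replicate 4) to 0.57. Il17ra was at -0.11 (upper-quartile), -0.15 (totals), -0.21 (well-expressed factors), -0.10 and -0.11 (FPKM + 1 and + 0.1), -0.16 (covariate), and without 1 library at -0.025 (without Arid5a medium replicate 4) to 0.22. Il17rc was at -0.17, -0.21, -0.28, -0.20, -0.23 and -0.20 in the same 6 fits, -0.031 with DESeq2, -0.0047 with the stricter filter, -0.0046 with the replicate block and -0.12 thinned, and without 1 library at -0.28 (without Arid5a IL-17 replicate 2; without Arid5a medium replicate 4 it was -0.083) to 0.28. Gapdh was at -0.12, -0.16, -0.22, -0.054, -0.054 and -0.065 in the 6 fits. Col1a1 was at -0.020 with totals, -0.082 with well-expressed factors and -0.11 with the covariate. The cause of these changes was not tested. With totals of 2128688 to 5713913 counts, transcripts below a log2 CPM of 2 rest on few counts a library, and counting error limits them.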

Other observations

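Further stable transcripts rose by smaller amounts, and those named here were chosen after their values were seen and belong to no list. Sdc4, a heparan sulfate proteoglycan gene, went from 154 ± 17.4 to 333 ± 69.9 CPM (1.11 ± 0.15, edgeR adjusted p = 1.8e-05), and the fibronectin receptor subunit gene Itga5 from 124 ± 7.98 to 246 ± 47.3 CPM (0.99 ± 0.15). Ext1, which encodes an enzyme of heparan sulfate synthesis, and Has2, which encodes a hyaluronan synthase, rose by 1.00 ± 0.15 and 0.99 ± 0.18. Ugdh, whose product makes the sugar precursor of both polymers, rose by 0.96 ± 0.15 and had a log2 fold of -0.03 ± 0.16 in the IgG RIP (adjusted p of the difference 0.0239 with TMM factors). The growth factor receptor gene Fgfr1 rose by 1.08 ± 0.20 and by 1.06 ± 0.21 in the IgG RIP.

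The nucleolar protein genes Gnl3, Wdr43, Krr1 and Nop14 rose by 1.10 ± 0.16, 0.95 ± 0.16, 0.90 ± 0.17 and 0.89 ± 0.15, with IgG log2 folds of 0.27, -0.15, 0.20 and 0.12. Hnrnpa1, a splicing regulator gene related to Hnrnpa3, went from 410 ± 23.8 to 868 ± 157 CPM (1.08 ± 0.19), with an IgG log2 fold of -0.01 ± 0.20. Sqstm1, the autophagy receptor gene, rose in both RIPs by 1.07 ± 0.15 and 1.01 ± 0.16, and Gpx4, whose product removes lipid peroxides, by 0.96 ± 0.17 against -0.25 ± 0.19 (adjusted p of the difference 0.0208 with TMM factors). With factors from well-expressed genes edgeR called 0 differences between the RIPs, with 2592 at an unadjusted p below 0.05. The cause of these changes was not tested.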
